A study of Mus musculus with 24 samples.

Results

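Stearoyl-CoA desaturases and the enzymes of fatty acid synthesis were followed in whole hearts of adult male mice that carried a mutant thyroid hormone receptor, were exposed to T3 before birth, or both. The genes were chosen by name, 10 in all (Scd1, Scd2, Scd4, Fasn, Acaca, Acacb, Acly, Srebf1, Elovl6 and Me1), and 8 of them had a probe set named for them alone in the platform annotation, among 22139 genes and unnamed probe sets. Scd2 and Srebf1 were not matched to such a probe set and were not analysed here. Each of the 8 genes had a single probe set, so the rule of taking the brightest probe set per symbol had nothing to choose between, and all 8 passed the filter on low values (a group mean above 4 on the log2 scale). Scd4 had drawn attention through its difference between the genotypes without maternal T3. For that comparison the 8 genes are therefore described and not tested.

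The data were 24 Clariom S arrays, each of a single mouse, in 4 groups of 6. They were wild-type mice (TRalpha1R384+/+) and TRα1+m mice (TRalpha1R384+/m, heterozygous for a mutation in Thra that weakens the binding of T3 to the receptor TRα1), each from untreated dams and from dams that drank T3 at 0.5 mg/L. The T3 water also held BSA at 0.01% and was offered between embryonic days 12.5 and 18.5 according to the sample labels, and untreated dams received BSA alone. All mice were males of the strain C57/BL6NCr, 4 to 5 months old, housed at 22 °C, and none was treated itself. The mutation is present in every cell from conception, all TRα1+m mice keep a wild-type allele, and they came from wild-type dams and heterozygous fathers. The labels do not say which mice shared a dam or a litter, so p-values measure the spread between these mice only. RNA came from whole hearts with any tissue attached to them, and a lower level of a gene can mean fewer cells of a type or less RNA per cell, which cannot be told apart.

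Values are log2 RMA signals (background-corrected, normalised across arrays and summarised per probe set), on which 1 unit is a 2-fold difference. The cardiomyocyte markers Myh6, Actc1, Tnnt2, Tnni3, Myl2, Pln, Ryr2 and Mb had a mean of 18.50 to 18.78 in each mouse, so the tissue was as labelled. Thra was higher with the mutation, by 0.58 without maternal T3 (standard error 0.13, limma, adjusted p = 0.0134) and by 0.73 with it (standard error 0.13, limma, adjusted p = 0.00110). A probe set cannot read a point mutation, so this does not check the genotype itself. On the first principal component, which held 17.5% of the variance, 5 arrays stood apart from the other 19: mouse 4 (TRα1+m, untreated dam), mice 14 and 15 (wild-type, maternal T3) and mice 16 and 17 (TRα1+m, maternal T3). Mice are numbered as in the labels, up to 17 for 9 mice and from 37 for 15 mice, and the labels do not say what the 2 ranges stand for. Among mice numbered from 37 alone, the Thra difference without maternal T3 was 0.67 and missed the threshold (limma, adjusted p = 0.0739). Correlations between pairs of arrays were 0.973 to 0.990, and no 2 arrays were identical.

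Cells make fatty acids from citrate. Acly, ATP citrate lyase, releases acetyl-CoA, the acetyl-CoA carboxylases Acaca and Acacb turn it into malonyl-CoA, Fasn builds palmitate from it, Elovl6 lengthens palmitate to stearate, and stearoyl-CoA desaturases insert a double bond to give oleate. Malic enzyme, Me1, supplies NADPH, and Srebf1 is the transcription factor that drives most of these genes together. In liver and fat the pathway is a classic target of T3, while the adult heart mainly burns fatty acids, and Scd4 is the desaturase isoform known from mouse heart.

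The RefSeq promoters (build GRCm38.p6) of Scd4 and its neighbour Scd3 are shown because these related desaturases lie in a cluster on chromosome 19, in which Scd4 separated the genotypes without maternal T3 and Scd3 did not. Those of Acly and Fasn are shown because both genes varied together from mouse to mouse. Each line gives the 250 bases before an annotated start, 5′ to 3′. Capitals mark any of 6 motifs searched on both strands: AGGTCA (nuclear receptor core site), a direct repeat of that site with 4 bases between, CACGTG (E-box), CCAAT (NF-Y box), GGGCGG (Sp1 box) and TCACNCCAC (sterol response element).
Scd4, chr19:44333076-44333325, plus strand: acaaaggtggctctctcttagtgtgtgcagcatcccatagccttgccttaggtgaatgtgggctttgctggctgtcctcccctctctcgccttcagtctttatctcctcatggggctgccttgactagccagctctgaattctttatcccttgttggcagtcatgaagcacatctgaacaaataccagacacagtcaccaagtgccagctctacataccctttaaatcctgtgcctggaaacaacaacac
Scd3, chr19:44203038-44203287, plus strand: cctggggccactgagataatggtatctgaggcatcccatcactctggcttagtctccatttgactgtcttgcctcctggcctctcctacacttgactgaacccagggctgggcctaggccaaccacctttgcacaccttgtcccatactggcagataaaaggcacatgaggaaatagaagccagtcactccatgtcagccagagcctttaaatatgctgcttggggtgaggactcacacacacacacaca
Fasn, chr11:120824548-120824797, minus strand: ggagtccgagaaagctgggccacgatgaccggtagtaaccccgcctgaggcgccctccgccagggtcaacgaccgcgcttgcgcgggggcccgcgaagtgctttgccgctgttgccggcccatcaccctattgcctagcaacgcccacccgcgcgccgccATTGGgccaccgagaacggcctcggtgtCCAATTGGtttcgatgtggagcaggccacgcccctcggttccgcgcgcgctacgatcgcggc
Acly, chr11:100528001-100528250, minus strand: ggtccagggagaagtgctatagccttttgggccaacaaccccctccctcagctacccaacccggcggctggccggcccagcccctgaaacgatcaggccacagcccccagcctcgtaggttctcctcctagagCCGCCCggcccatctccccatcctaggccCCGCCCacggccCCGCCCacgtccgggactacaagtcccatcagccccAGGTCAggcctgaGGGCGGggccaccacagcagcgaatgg

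The Scd4 and Scd3 windows held none of the 6 motifs, neither in the bases shown nor in the 50 bases after the start, which were searched too. Fasn held 3 NF-Y boxes, at -90, -62 and -59 from the start, of which the latter pair overlap in the stretch CCAATTGG, and this start lies inside the annotated span of the gene. Acly held 4 Sp1 boxes before its start, a nuclear receptor core site at -40 and an NF-Y box at 38 bases after the start. Elovl6 had a core site at -193, Acacb a core site 44 bases after its start and an NF-Y box at -87, and the annotated Acaca start had no match. The Acacb and Acaca starts also lie inside the annotated spans of their genes. Me1 had 4 Sp1 boxes around its outer start and, at a start inside the gene, an NF-Y box at -208. Of 32851 mouse promoters of the same length, 16.3% held the core site, 0.0152% the direct repeat, 7.15% the E-box, 37.4% the NF-Y box, 35.7% the Sp1 box and 1.24% the sterol response element. Promoters were found for 7 of the 8 genes, and a match of letters is a description and not a binding site.

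Scd4 was the gene of this group with the clearest separation of genotypes. In wild-type mice of untreated dams it ranged from 9.26 to 10.09 with a median of 9.35, and in TRα1+m mice of untreated dams from 11.06 to 12.74 with a median of 11.90. The 2 groups did not overlap, and in 36 of 36 pairs of mice the mutant one had more Scd4. The means were 9.46 ± 0.31 and 11.93 ± 0.65 (SD, n = 6 each), a difference of 2.47 (standard error 0.38), or 5.54-fold. This is the difference through which the gene was chosen, so no test is given. It was the only one of the 8 genes whose groups did not overlap there, a pattern that 2.76% of the 19801 genes tested showed in either direction and 0.924% in the direction of Scd4. Among wild-type mice, mouse 39 stood above the others at 10.09, with the next at 9.41.

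After maternal T3 the Scd4 levels of the genotypes lay closer together and overlapped. Scd4 was chosen for its difference without maternal T3, so a smaller one in other mice can follow from that choice alone. Whether maternal T3 narrowed the difference was not tested. T3-exposed wild-type mice ranged from 9.12 to 10.91 with a median of 10.13, and T3-exposed TRα1+m mice from 9.70 to 12.71 with a median of 11.74. In 4 of the 6 TRα1+m mice Scd4 was above every wild-type mouse, and mice 16 and 51 lay within the wild-type range at 9.70 and 10.52. The means were 10.13 ± 0.62 and 11.45 ± 1.15 (SD, n = 6 each). The difference of 1.32 (standard error 0.38, 95% interval 0.53 to 2.10) just missed the threshold over all genes (limma, adjusted p = 0.0615), and the mutant mouse had the larger value in 29 of 36 pairs. None of the 8 genes passed in this comparison, against 2.79% of all genes tested, and Scd4 was the 1 of the 8 with an unadjusted p under 0.05, which 13.7% of all genes had. In 0 of the 8 genes did the genotypes not overlap, against 1.89% of all genes.

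Individual mice decided on which side of the threshold Scd4 fell. Without mouse 16, an array that stood apart, the difference was 1.67 (limma, adjusted p = 0.00521), and without mouse 55 it was 1.07 (limma, adjusted p = 0.157). Leaving out mouse 51 gave an adjusted p of 0.0397 and leaving out wild-type mouse 47 gave 0.0493 in limma, while the other 9 of the 12 T3-exposed mice left it above the threshold. Mice of untreated dams were not among those left out for this result. Without all 5 arrays that stood apart the difference was 1.62 (limma, adjusted p = 0.0295). Over all mice left out and all other settings tried, the estimate ran from 1.07 to 1.67 and was always in the same direction.

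The label numbers also went with the Scd4 level. In TRα1+m mice of untreated dams the mean was 11.38 in the 3 mice numbered up to 17 and 12.48 in the 3 numbered from 37, and after maternal T3 it was 10.58 in 2 mice and 11.89 in 4 mice. In wild-type mice after maternal T3 the corresponding means were 9.87 and 10.39, with 3 mice each. Of the wild-type mice of untreated dams only mouse 2 had a low number, so the ranges are not evenly spread over the groups. With the range as a block, the difference between genotypes after maternal T3 was 1.18 (limma, adjusted p = 0.0463), and within the mice numbered from 37 it was 1.50 (limma, adjusted p = 0.0714).

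The maternal T3 difference of Scd4 in wild-type mice was 0.67 (standard error 0.38, 95% interval -0.12 to 1.46, limma, adjusted p = 0.510), and 28 of 36 pairs had more in the exposed mouse. With the mutation it was -0.48 (standard error 0.38, 95% interval -1.27 to 0.30, limma, adjusted p = 0.750), with 13 of 36 such pairs. Neither passed the test. Each of these changes uses an untreated group of the comparison by which Scd4 was chosen. Their p-values and intervals are therefore not free of that choice. The difference between these 2 changes, -1.15 (standard error 0.54), contains the comparison by which Scd4 was chosen and is given without a test. The group means rose in the order untreated wild-type, T3-exposed wild-type, T3-exposed TRα1+m and untreated TRα1+m. Neighbours in this order overlapped in their ranges, and its ends are the groups by which Scd4 was chosen.

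**Figure D1:**
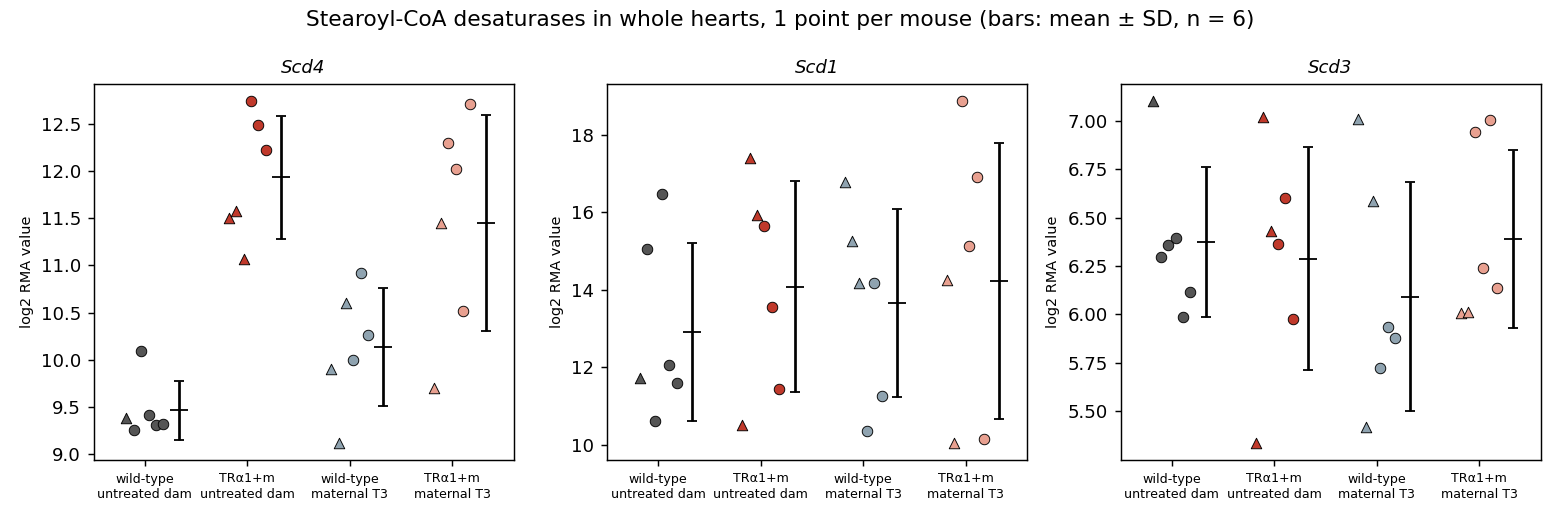
Log2 RMA values of 3 desaturase genes in each of the 4 groups. Each point is 1 mouse (triangles: label numbers up to 17; circles: from 37), and the bar beside each group is the mean ± SD of 6 mice. Scd4 separates the genotypes without maternal T3, the comparison by which it was chosen, and overlaps after it. Scd1 spreads from 10.06 to 18.87 over all mice, and Scd3 stays between 5.34 and 7.10.

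Scd1, the desaturase of fat, liver and skin, behaved differently from Scd4 although it lies 61.1 kb away on the same chromosome (Scd4 at chr19:44333326-44346743, Scd1 at chr19:44394450-44407709). It varied more between mice of the same group than nearly any other gene. The levels ranged from 10.63 to 16.46 in untreated wild-type (median 11.89), 10.52 to 17.39 in untreated TRα1+m (median 14.60), 10.37 to 16.77 in T3-exposed wild-type (median 14.18) and 10.06 to 18.87 in TRα1+m mice exposed to T3 (median 14.69). All 4 groups overlapped almost completely. The SD within groups was 2.79, the 3rd largest of 19801 genes, whose median was 0.347, and only 3.80% of the variance of Scd1 lay between groups, against 68.0% for Scd4. The difference between genotypes was 1.16 without maternal T3 (standard error 1.40) and 0.56 after it (standard error 1.40, limma, adjusted p = 0.921). With intervals of -2.31 to 3.42 after maternal T3, differences of several fold either way could not have been seen. Across the 24 mice the correlation of Scd1 and Scd4 was 0.05, or -0.18 with group means removed.

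Scd3, another desaturase of the cluster, had group means of 6.09 to 6.39. It differed between genotypes by -0.09 without maternal T3 (limma, adjusted p = 0.953) and by 0.30 after it (limma, adjusted p = 0.706), and its groups overlapped. Scd1 and Scd3 are among the 10 measured genes nearest to Scd4, 5 on either side. Of the other 8, Pkd2l1 and Wnt8b were below the filter. Erlin1, Cwf19l1, Bloc1s2, Sec31b, Ndufb8 and Hif1an differed between genotypes by -0.19 to 0.34 without maternal T3 (lowest limma adjusted p = 0.507) and by -0.45 to 0.36 after it (lowest limma adjusted p = 0.391). No neighbour of Scd4 passed in any comparison in which it was tested, and Scd1 was not tested by genotype without maternal T3. The desaturases are related in sequence, and whether a probe of Scd4 also binds RNA of another desaturase was not tested.

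The genes whose levels were most like those of Scd4 were found by correlation over the 24 mice. They were Gpc3, a glypican (r = 0.82), Zfp609 (0.80), Lgr6, a receptor for R-spondins (0.79), Ptp4a3, a phosphatase (0.79), and Cul7, a cullin (0.78). As 68.0% of the variance of Scd4 lay between groups, these correlations partly carry the comparison by which it was chosen. With group means removed the genes most like Scd4 were Neo1, the receptor neogenin (0.77), Ogdhl, a mitochondrial dehydrogenase (0.74), Dcun1d4 (0.74), Hao1, a hydroxyacid oxidase (0.72), and Amer1 (0.72). These are the highest correlations among the 17478 tested genes with a symbol and describe these mice only. None of the other 7 lipogenic genes came near, with correlations of -0.18 to 0.16 to Scd4 once group means were removed.

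**Figure D2:**
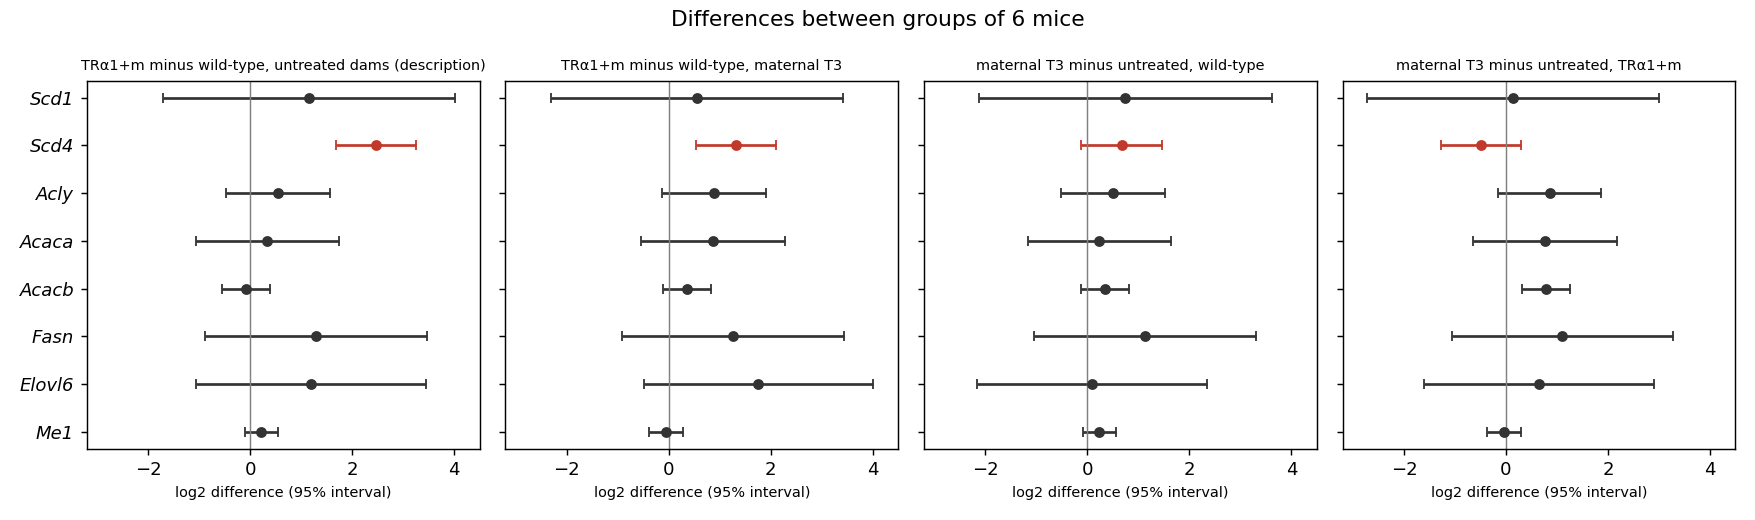
Log2 differences between groups for the 8 genes, with 95% intervals from the limma fit (6 mice per group). The left panel is the comparison by which Scd4 (red) was chosen and is a description, so its intervals are not read as a test. Both panels for maternal T3 share untreated mice with that comparison. In the 3 tested panels, the interval of Scd4 lies above 0 for genotype after maternal T3. That of Acacb lies above 0 for maternal T3 in TRα1+m mice, and all others include 0.

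Acly, which feeds acetyl-CoA into the pathway, ranged from 8.92 to 10.81 in untreated wild-type (median 9.68), 9.39 to 11.53 in untreated TRα1+m (median 10.18), 9.47 to 11.29 in T3-exposed wild-type (median 10.08) and 9.67 to 13.73 in TRα1+m mice exposed to T3 (median 10.72). The groups overlapped. The genotype difference was 0.54 without maternal T3 (standard error 0.49) and 0.89 after it (standard error 0.49, limma, adjusted p = 0.459), and maternal T3 made a difference of 0.51 in wild-type (limma, adjusted p = 0.716) and 0.86 in TRα1+m mice (limma, adjusted p = 0.665).

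Acaca, the cytosolic acetyl-CoA carboxylase that supplies the synthase, ranged from 7.11 to 9.23 in untreated wild-type (median 7.86), 6.44 to 10.30 in untreated TRα1+m (median 8.07), 7.42 to 9.96 in T3-exposed wild-type (median 7.88) and 7.28 to 12.49 in TRα1+m mice exposed to T3 (median 8.33). The medians differed by less than the ranges, and the groups overlapped. The genotype difference was 0.34 without maternal T3 and 0.87 after it (standard error 0.69, limma, adjusted p = 0.651).

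Fasn, the synthase that makes palmitate, ranged from 6.96 to 11.05 in untreated wild-type (median 8.11), 7.70 to 12.85 in untreated TRα1+m (median 9.56), 7.59 to 12.01 in T3-exposed wild-type (median 9.72) and 7.81 to 15.05 in TRα1+m mice exposed to T3 (median 10.72). In the same order the means were 8.49 ± 1.53, 9.78 ± 2.12, 9.63 ± 1.83 and 10.89 ± 2.78 (SD, n = 6 each), and the groups overlapped. The genotype difference was 1.29 without maternal T3 (standard error 1.06) and 1.26 after it (standard error 1.06, 95% interval -0.92 to 3.43, limma, adjusted p = 0.679). Maternal T3 made a difference of 1.14 in wild-type (limma, adjusted p = 0.703) and 1.11 in TRα1+m mice (limma, adjusted p = 0.798).

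Elovl6, the elongase of palmitate, ranged from 5.15 to 8.31 in untreated wild-type (median 5.80), 5.11 to 10.21 in untreated TRα1+m (median 6.93), 4.91 to 8.63 in T3-exposed wild-type (median 6.22) and 3.75 to 13.14 in TRα1+m mice exposed to T3 (median 7.33). In 1 T3-exposed TRα1+m mouse it was below a log2 value of 4, and the lowest and the highest of all 24 values were both in that group. The genotype difference was 1.19 without maternal T3 and 1.76 after it (standard error 1.10, 95% interval -0.49 to 4.01, limma, adjusted p = 0.528).

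Scd1, Fasn, Acaca, Acly and Elovl6 varied together from mouse to mouse. The same mouse was the highest of its group for all 5 genes in every group, namely mouse 56 in untreated wild-type, mouse 5 in untreated TRα1+m, mouse 13 in T3-exposed wild-type and mouse 49 in T3-exposed TRα1+m mice. With group means removed, the 10 correlations among the 5 genes were 0.83 to 0.96 over the 24 mice, which are points of 1 array each and share its RNA. By their SD within groups, Scd1, Elovl6, Fasn, Acaca and Acly ranked 3, 6, 7, 16 and 55 of 19801 genes. Mouse 49 had the highest level of all 24 mice for each, with 18.87 for Scd1, 15.05 for Fasn and 13.14 for Elovl6.

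**Figure D3:**
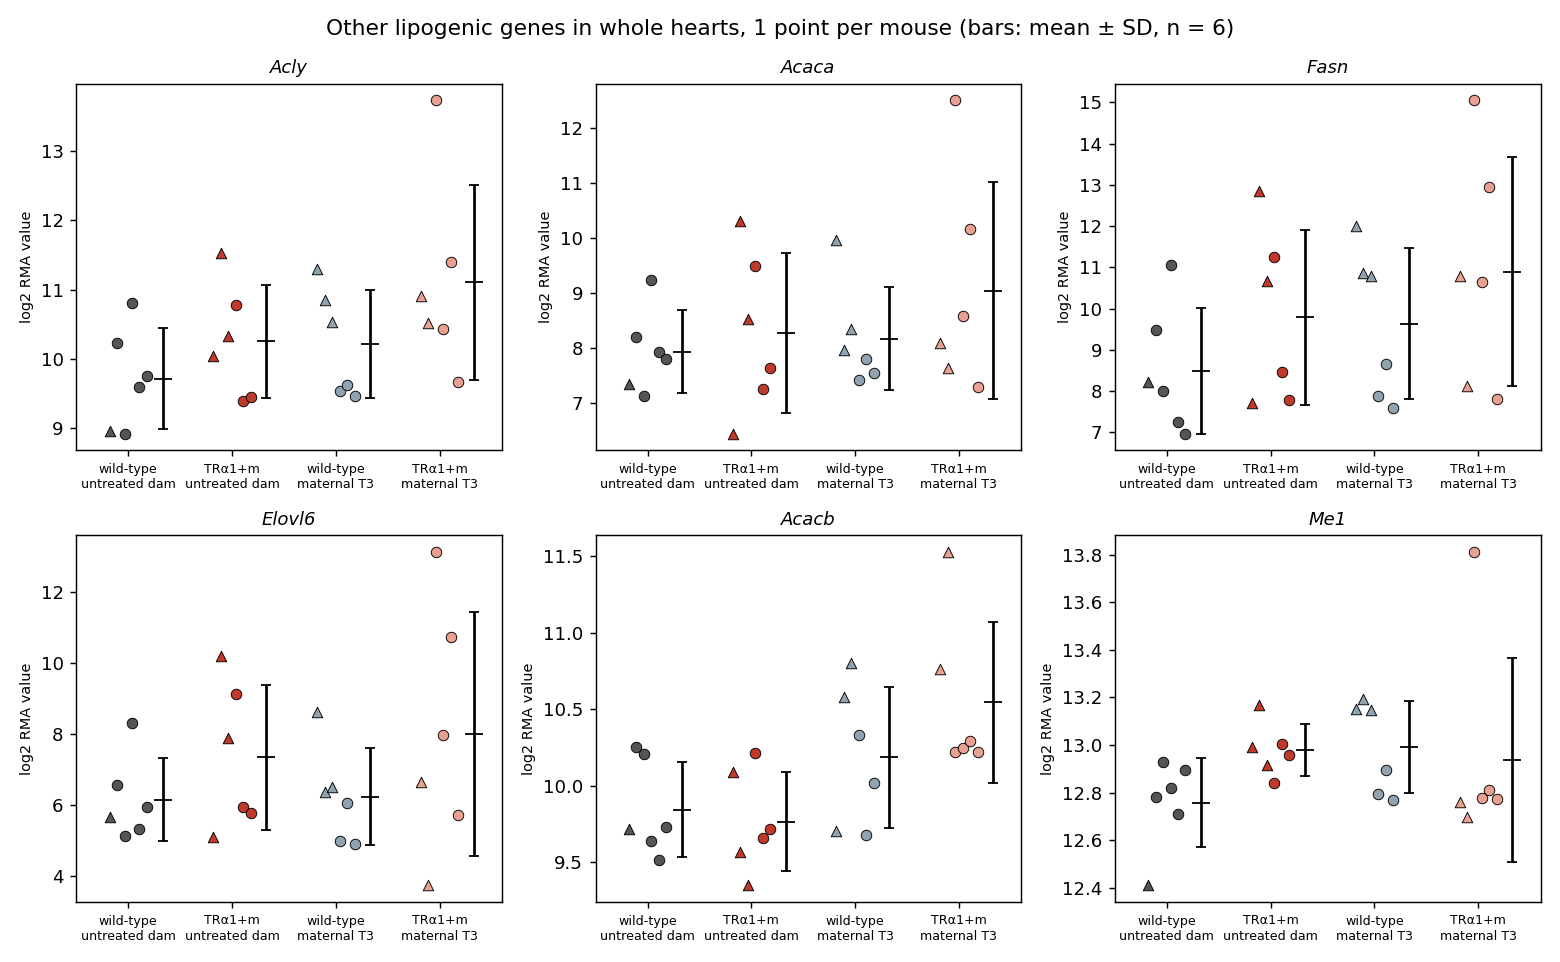
Log2 RMA values of 6 further lipogenic genes in each of the 4 groups. Each point is 1 mouse (triangles: label numbers up to 17; circles: from 37), with the mean ± SD of 6 mice beside it. For Acly, Acaca, Fasn and Elovl6 a single mouse leads each group, and for Acacb the 2 groups of TRα1+m mice do not overlap.

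The mean of a list of adipocyte markers moved with these 5 genes, though not every marker did. The list held 10 markers, 9 with a probe set (Adipoq, Lep, Plin1, Cidec, Fabp4, Retn, Car3, Lipe and Adig), and the mean log2 level of the 9 ran from 6.62 to 8.36 in wild-type mice of untreated dams and from 7.04 to 8.81 with the mutation. After maternal T3 these ranges were 6.73 to 9.07 and 7.04 to 9.97. With group means removed, its correlation with the 5 genes was 0.84 to 0.93, highest for Scd1 and Fasn. Of the defining markers, Adipoq, the adiponectin gene, ranged from 3.70 to 10.87 over the 24 mice, Plin1 from 3.50 to 9.65 and Lep, leptin, from 2.93 to 5.83, with Lep above 4 in only 3 mice. Ucp1, the uncoupling protein of brown fat, ranged from 2.47 to 13.62 and was above 4 in 14 mice. Of the other 4 brown fat markers Elovl3, Cidea and Dio2 had correlations of 0.71, 0.56 and 0.38 with Scd1 once group means were removed, and Cox8b one of -0.30. Mouse 49, the highest for the 5 genes, had 10.87 for Adipoq and 13.62 for Ucp1.

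A search chosen after the values were seen asked which genes with a symbol were most like Scd1 once group means were removed. After Fasn (r = 0.95) came Adipoq (0.94), Cdo1 (0.94), Ucp1 (0.93), the citrate carrier gene Slc25a1 (0.92), Lgals12 (0.92), Car3 (0.92), Elovl6 (0.91), Plin1 (0.91) and Tmem45b (0.91). Not all adipocyte markers followed. Fabp4, which endothelial cells of the heart also express, had a correlation of -0.14 with Scd1, and Adig 0.14. Those of Retn, Lep and Lipe were 0.23, 0.54 and 0.58, and that of Cidec was 0.85. Markers of epicardium and mesothelium (5 of 5 measured) had a mean of 5.99 to 7.72 and a correlation of 0.72 with Scd1, macrophage markers one of -0.12 and skin markers one of 0.01.

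With the adipocyte marker mean as a covariate, the genotype and maternal T3 differences of the 5 genes became smaller or changed sign, while the interaction grew from 0.53 to 1.03 for Acaca, from 0.35 to 0.71 for Acly and from 0.57 to 1.38 for Elovl6. The genotype difference of Scd1 after maternal T3 went from 0.56 to -0.46 (standard error 0.53, limma, adjusted p = 0.793), that of Fasn from 1.26 to 0.49 (standard error 0.41, limma, adjusted p = 0.689) and that of Elovl6 from 1.76 to 1.02 (standard error 0.58, limma, adjusted p = 0.481). The maternal T3 difference of Scd1 in wild-type mice went from 0.75 to -1.64 (standard error 0.56, limma, adjusted p = 0.405). Without maternal T3, where no test is given, the genotype differences became -0.99 for Scd1, -0.34 for Fasn, -0.61 for Acaca, -0.14 for Acly and -0.37 for Elovl6. None of the tested differences passed with or without the covariate. Scd4 kept its genotype difference after maternal T3 at 1.35 (standard error 0.39, limma, adjusted p = 0.0619), and its correlation with the marker mean was 0.21, or -0.12 with group means removed. The part of attached fat in the levels of the 5 genes was not tested beyond these values.

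**Figure D4:**
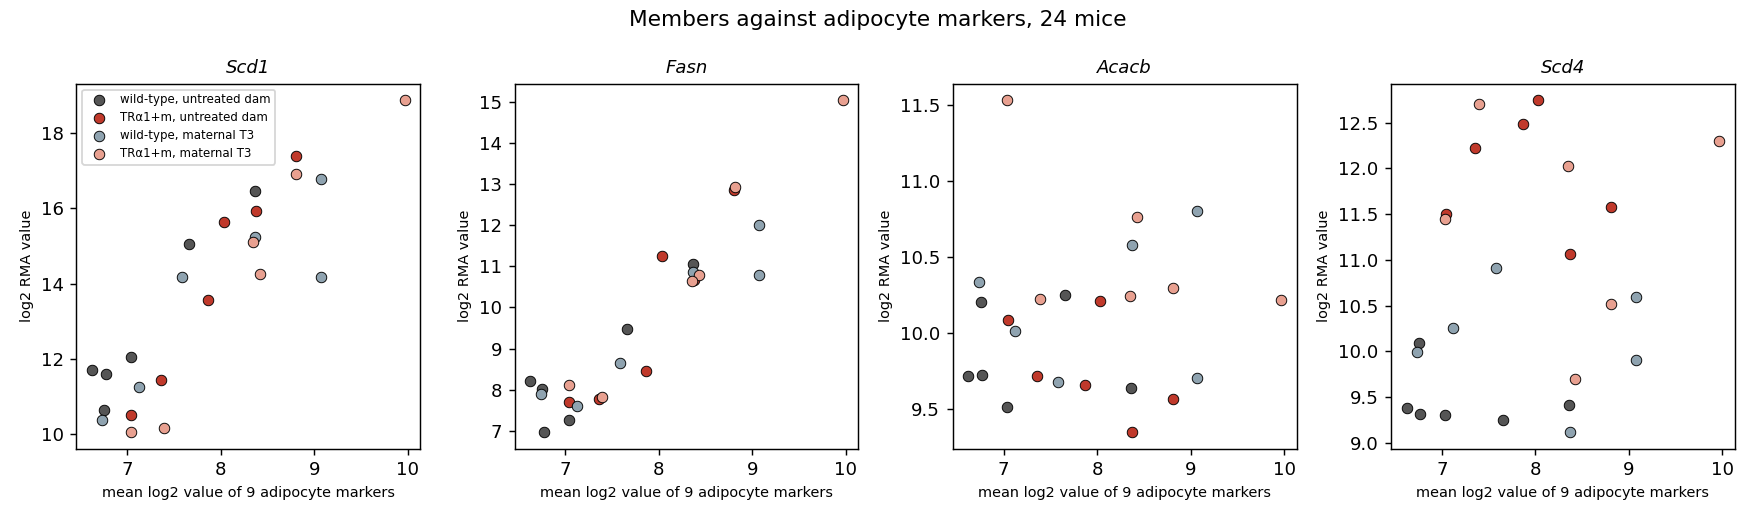
Log2 RMA values of Scd1, Fasn, Acacb and Scd4 against the mean log2 value of 9 adipocyte markers, 1 point per mouse (24 mice, coloured by group). Scd1 and Fasn climb with this mean, with correlations of 0.93 for both once group means are removed, while Acacb and Scd4 do not, at -0.24 and -0.12.

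Acacb, the carboxylase at the mitochondrial membrane whose malonyl-CoA restrains fatty acid oxidation, did not follow the 5 genes, and its correlations with them were negative, between -0.42 and -0.10 with group means removed. Its correlation with the cardiomyocyte marker mean was 0.71 in the same way, and in TRα1+m mice that mean lay between 18.54 and 18.67 without and between 18.54 and 18.76 after maternal T3. The part of these markers in the Acacb level was not tested. It ranged from 9.52 to 10.25 in untreated wild-type (median 9.72), 9.35 to 10.21 in untreated TRα1+m (median 9.69), 9.68 to 10.80 in T3-exposed wild-type (median 10.17) and 10.22 to 11.53 in TRα1+m mice exposed to T3 (median 10.27). The lowest T3-exposed TRα1+m mouse, at 10.219, was just above the highest untreated one, at 10.212, so these groups did not overlap.

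For maternal T3 in TRα1+m mice the Acacb difference was 0.78 (standard error 0.23, 95% interval 0.31 to 1.25), with the exposed mouse higher in 36 of 36 pairs, but it did not pass over all genes (limma, adjusted p = 0.292). None of the 8 genes passed there, against 0.0859% of all genes tested, Acacb being the 1 of the 8 with an unadjusted p under 0.05 (8.31% of all genes), and groups failed to overlap for 0.525% of genes in either direction and 0.227% in that of Acacb. The highest Acacb levels of all mice were those of mice 17 (11.53), 15 (10.80), 16 (10.76) and 14 (10.58), whose arrays all stood apart. Mouse 4, the remaining such array, had 10.09. Without the 5 arrays that stood apart the difference was 0.54 (limma, adjusted p = 0.607), and within the mice numbered from 37 it was 0.38 (limma, adjusted p = 0.759). In wild-type mice maternal T3 made a difference of 0.34 (standard error 0.23, limma, adjusted p = 0.576), and the genotypes differed by -0.08 without maternal T3 and by 0.36 after it (standard error 0.23, limma, adjusted p = 0.535).

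Me1, malic enzyme, was the steadiest of the 8 genes, with an SD within groups of 0.26. It ranged from 12.41 to 12.93 in untreated wild-type (median 12.80), 12.84 to 13.17 in untreated TRα1+m (median 12.98), 12.77 to 13.19 in T3-exposed wild-type (median 13.02) and 12.70 to 13.81 in TRα1+m mice exposed to T3 (median 12.78). In the last group mouse 49 lay far above the others at 13.81, with the next at 12.81. The genotype difference was 0.22 without maternal T3, where 33 of 36 pairs had the larger value in the mutant mouse, and -0.05 after it (standard error 0.16, limma, adjusted p = 0.939), with 10 of 36. Maternal T3 made a difference of 0.23 in wild-type (standard error 0.16, limma, adjusted p = 0.587) and -0.04 in TRα1+m mice (standard error 0.16, limma, adjusted p = 0.959). Its correlation with the adipocyte marker mean was 0.67 with group means removed.

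Over the 8 genes, 7 were higher in TRα1+m mice without maternal T3, with a median difference of 0.85 beside -0.01 for all genes tested, and 7 after maternal T3, with a median of 0.88 beside -0.01. Maternal T3 went with higher means of 8 genes in wild-type mice, with a median of 0.42 beside -0.02, and of 6 genes in TRα1+m mice, with a median of 0.71 beside -0.0041. These are descriptions, since 5 of the 8 genes moved together from mouse to mouse. In wild-type mice none of the 8 genes passed for maternal T3, against 0.00505% of all genes tested, and 0 had an unadjusted p under 0.05, against 11.0% of all genes. For the interaction none of 7 genes passed (lowest unadjusted p = 0.185, for Acacb, all adjusted p = 0.9996 in limma), against 0% of all genes tested, and 830 genes (4.19%) had an unadjusted p under 0.05.

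Around the 8 genes, 67 other genes of fatty acid, glycerolipid and sterol synthesis and their regulators were listed, of which 61 had a probe set and 59 passed the filter. Without maternal T3, 1 of the 59 passed by genotype, against 1.62% of all genes tested. This was Lpin1, the phosphatidate phosphatase lipin 1, which acts in triglyceride synthesis and as a coactivator. It ranged from 14.61 to 14.99 in wild-type mice (median 14.83) and from 13.17 to 14.02 in TRα1+m mice (median 13.89), and fell by 1.0 (standard error 0.20, limma, adjusted p = 0.00498) with no overlap.

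After maternal T3, 5 of the 59 passed by genotype, 4 lower and 1 higher, against 2.79% of all genes tested. Fads1, the delta-5 desaturase of polyunsaturated fatty acids, ranged from 8.25 to 10.24 in wild-type (median 9.04) and from 7.07 to 8.48 in TRα1+m mice (median 8.06), and fell by 1.17 (standard error 0.27, limma, adjusted p = 0.0127). The ranges overlapped at their ends. Prkab2, a regulatory subunit of AMP-activated protein kinase, which inhibits both carboxylases, ranged from 10.31 to 11.20 and from 8.94 to 10.45 and fell by 0.90 (standard error 0.20, limma, adjusted p = 0.0112). Pdhx, a component of the pyruvate dehydrogenase complex, ranged from 11.20 to 11.89 and from 10.60 to 11.43 and fell by 0.60 (standard error 0.15, limma, adjusted p = 0.0214). Without maternal T3 these genes did not pass. The genotypes still did not overlap there for Fads1 (8.79 to 9.46 in wild-type, 7.60 to 8.68 in TRα1+m mice) and Prkab2 (10.45 to 11.09 and 9.92 to 10.41). Such a pattern was seen in 2.76% of all genes tested, and Pdhx overlapped.

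After maternal T3 Lpin1 was again lower, ranging from 13.84 to 14.83 in wild-type and from 12.99 to 14.10 in TRα1+m mice, and fell by 0.72 (standard error 0.20, limma, adjusted p = 0.0485). Its ranges overlapped, and the call was lost with 18 of the 24 mice left out in turn. Fdft1, squalene synthase, was the gene that rose, from a range of 10.36 to 10.93 to one of 11.06 to 11.34 with no overlap, by 0.50 (standard error 0.14, limma, adjusted p = 0.0413), and it missed the threshold with 10 of the 24 mice left out. Fitted on the 12 T3-exposed mice alone, none of the 5 passed, and among mice numbered from 37, 2 did. No gene of the lists passed for maternal T3 in either genotype or for the interaction, with 10, 10 and 1 of 59 at an unadjusted p under 0.05, against 11.0%, 8.31% and 4.19% of all genes.

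By list, the call without maternal T3 came from glycerolipid synthesis and droplets (1 of 9 genes). After maternal T3 they came from substrate and NADPH supply (1 of 9), elongation and desaturation (1 of 15), regulators of lipogenesis (1 of 20), glycerolipid synthesis and droplets (1 of 9) and sterol synthesis (1 of 6), where 2.79% of all genes passed, so that no list held more than a single call. The median genotype difference of the 59 genes was -0.08 without maternal T3 and -0.11 after it, beside -0.01 for all genes tested. Srebf2, the sterol-sensing relative of Srebf1, and Thrsp, the thyroid hormone responsive gene of lipogenic tissues, were singled out after their values were seen. Srebf2 was 11.47 to 12.18 in wild-type and 10.96 to 11.42 in TRα1+m mice without maternal T3, a difference of -0.63 (standard error 0.17, limma, adjusted p = 0.0587). Its genotypes did not overlap there, as for 2.76% of all genes tested. Of the same lists Idh1 (12.11 to 12.52 and 11.47 to 12.03) and Me3 (12.43 to 13.05 and 11.94 to 12.33) also did not overlap there. After maternal T3 Srebf2 overlapped, at 11.39 to 12.38 and 10.89 to 11.88. Thrsp differed by 0.63 without maternal T3 (standard error 0.57, limma, adjusted p = 0.771).

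**Figure D5:**
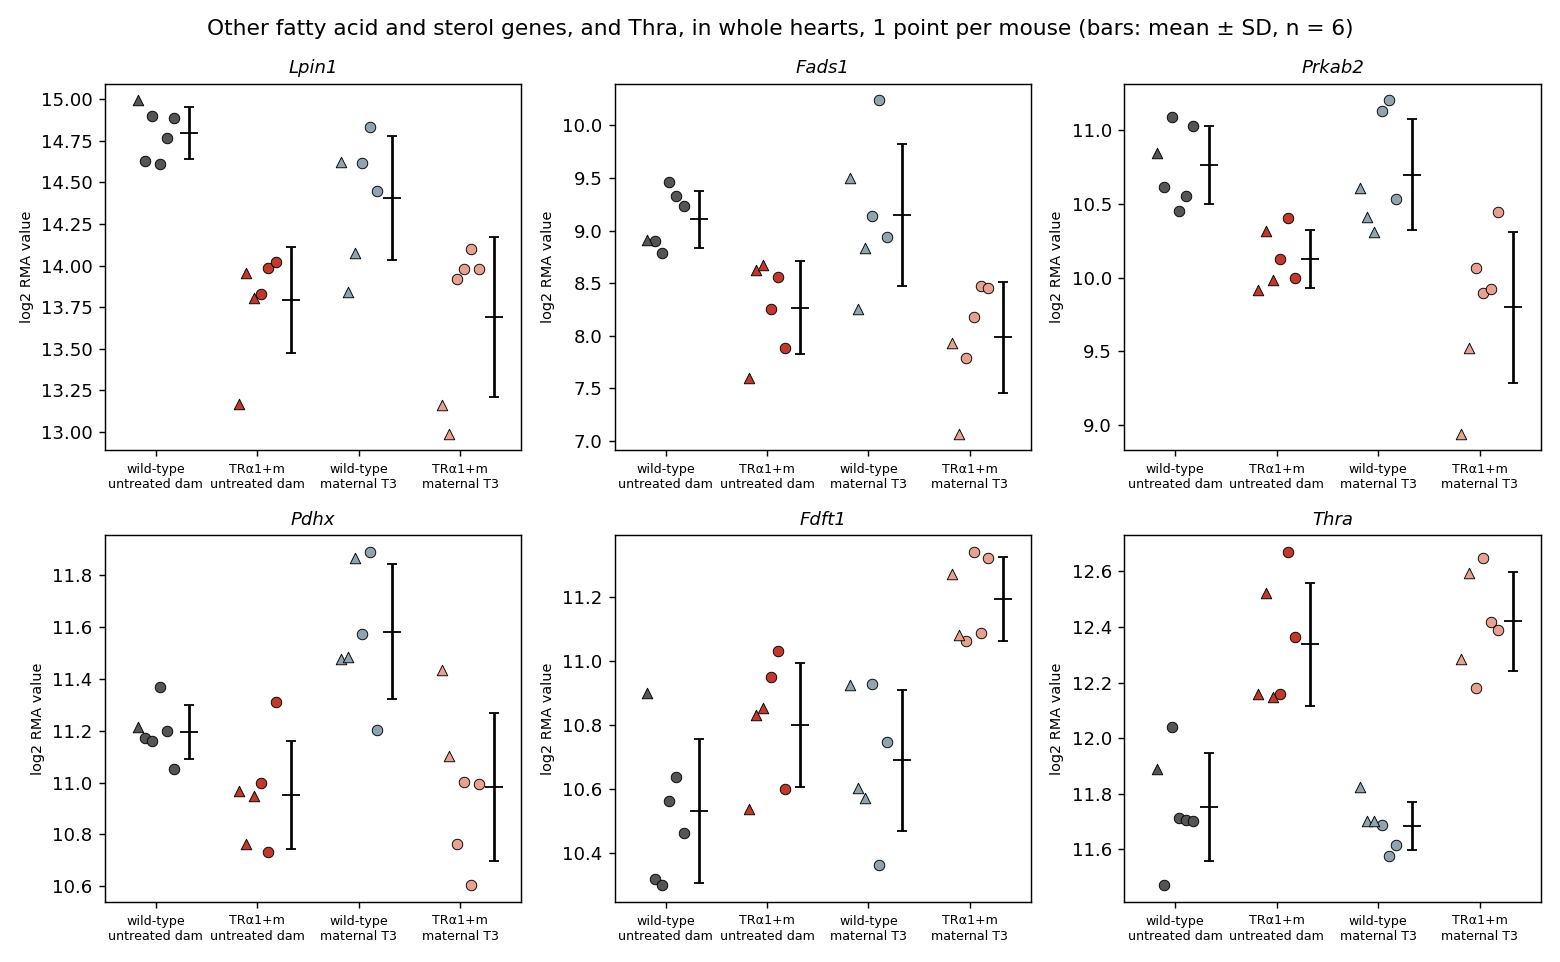
Log2 RMA values of the 5 other fatty acid and sterol genes that passed by genotype in at least 1 comparison, and of Thra. Each point is 1 mouse (triangles: label numbers up to 17; circles: from 37), with the mean ± SD of 6 mice beside it. Lpin1 is lower and Thra higher in TRα1+m mice in both pairs of groups, and Fdft1 does not overlap between the genotypes after maternal T3.

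Some cell type markers differed between the genotypes beside these genes. After maternal T3, Lipe, the hormone-sensitive lipase of adipocytes that heart muscle also expresses, rose by 1.02 (standard error 0.23, limma, adjusted p = 0.0132), and of the mesothelial markers Msln rose by 1.10 (standard error 0.21, limma, adjusted p = 0.00292) and Lrrn4 by 0.95 (standard error 0.25, limma, adjusted p = 0.0312). Of 8 tested adipocyte markers Lipe was the only one that passed, and the epicardial list had 2 of 5, against 2.79% of all genes. Without the 5 arrays that stood apart Lipe (limma, adjusted p = 0.0521) and Lrrn4 (limma, adjusted p = 0.150) missed the threshold, and Lrrn4 also missed it with 7 of the 24 mice left out in turn. Without maternal T3, Csf1r, the macrophage growth factor receptor, fell by 1.06 (standard error 0.21, limma, adjusted p = 0.00507), and 1 of 5 macrophage markers passed, against 1.62% of all genes. Skin and sebaceous markers, the home of further desaturase expression, stayed at a mean of 3.95 to 4.53, close to the filter at 4. Krt5 was above 4 in 1 of 24 mice, Mc5r in 10, Krt14 in 22 and Krt79 in 24. A correlation with their mean thus rests partly on values at the floor. With group means removed, Scd4 had a correlation of 0.43 with the mean of these skin markers and of -0.47 with that of the macrophage markers. The part of these cell types in the differences of the lipogenic genes was not tested.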

How the data were processed

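RNA of 24 whole hearts was hybridised by the study to Clariom S mouse arrays, 1 per mouse. The authors deposited log2 values, and per the labels they used RMA and the Transcriptome Analysis Console 4.0.1 to make them. RMA forces similar distributions on all arrays, so a shift of the whole transcriptome would not be seen, and depth is not defined for arrays, where the number of mice limits the precision. Of 28846 probe sets 6640 were controls and were dropped, gene symbols were taken from the platform annotation and matched to GRCm38.p6, and of several probe sets of a symbol the brightest was kept. Features with a mean above 4 in at least 1 group (19801 of 22139) were tested in R 4.3.3 with limma 3.58.1 (lmFit and eBayes on all 24 arrays, 1 mean per group, prior degrees of freedom 6.80) and Benjamini-Hochberg adjustment over all of them, at an adjusted p under 0.05. The fit was tried on simulated data with known changes. These were drawn independently for each gene and lack the structure between arrays seen here, so they check the computation only.

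Named were all 8 measured genes, Scd3, pathway genes past a test (at most 4 per list and comparison), Thra, Thrb, 5 measured genes on either side of Scd4, the 5 genes most correlated with Scd4 before and after removing group means, and marker genes. Thrb differed by -0.67 without maternal T3 (limma, adjusted p = 0.0727) and by -0.33 after it (limma, adjusted p = 0.486). Members and lists were chosen with earlier results of these data known. The other marker lists, of brown adipocytes, Schwann cells and neurons and atrial cardiomyocytes, had 0 of 5, 0 of 4 and 0 of 5 members past the test in every comparison.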

Additional observations from a re-analysis of the deposited data

Results flagged for a closer look

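In 3 of the 32 sets of 6 mice (8 genes in 4 groups), a single mouse lay further from the rest than Dixon's critical value of 0.625 allows. Chance alone marks about 1 set in 20. Scd4 of mouse 39, a wild-type mouse of an untreated dam, was 10.09, above the next at 9.41. Acaca of mouse 13, a wild-type mouse after maternal T3, was 9.96, above the next at 8.33. Me1 of mouse 49, a TRα1+m mouse after maternal T3, was 13.81, above the next at 12.81, and the same mouse was the highest of all mice for Scd1, Fasn, Acaca, Acly and Elovl6.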

How the results depend on the processing

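Under 11 other settings, 302 of 334 tested differences of the 8 genes kept their direction and their side of the threshold, 29 turned and 3 newly passed. With 1 mouse left out, 419 of 456 did, 34 turned and 3 newly passed. Of the differences described without a test, 6 of 98 turned under other settings and 3 of 120 with 1 mouse left out. All 6 new passes were Scd4 by genotype after maternal T3, so that the number of the 8 genes past the test there was 1 with array weights, with the label range as a block and without the 5 arrays that stood apart, and 0 to 1 with 1 mouse left out. No count of the 8 genes changed for maternal T3 in either genotype or for the interaction. Pathway calls by genotype without maternal T3 went from 1 to 2 with a filter at 5 and with the block, 3 without moderation, and 4 with trend and robust settings, array weights, without the 5 arrays or with the compared groups alone (1 to 2 with 1 mouse left out). After maternal T3 they went from 5 to 2 in mice numbered from 37 and 0 with the compared groups alone (2 to 5 with 1 mouse left out). Lpin1 also missed the threshold there with no filter, without moderation, with array weights, with centred arrays and with the adipocyte covariate (limma, adjusted p = 0.0532 to 0.0761), and Fdft1 without the 5 arrays (limma, adjusted p = 0.163).

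None of the tested differences that turned had passed the test. In mice numbered from 37, the maternal T3 difference in wild-type mice became -1.23 for Scd1, -0.51 for Fasn, -0.46 for Acaca, -0.32 for Acly, -0.94 for Elovl6 and -0.0060 for Me1, that of Me1 in TRα1+m mice 0.11, the genotype difference of Me1 after maternal T3 0.22, and the interaction 2.94 for Scd1, 2.95 for Fasn and 0.11 for Me1. Without the 5 arrays, Me1 turned to 0.14 by genotype after maternal T3 and 0.066 for maternal T3 in TRα1+m mice, Elovl6 to -0.013 for maternal T3 in wild-type mice, and the interaction to 0.24 for Scd1 and 0.87 for Fasn. With array weights Elovl6 turned to -0.037 for maternal T3 in wild-type mice and the interaction of Fasn to 0.14, and with the block the latter was 0.31. With the adipocyte marker mean as covariate, the maternal T3 difference in wild-type mice became -1.64 for Scd1, -0.67 for Fasn, -0.82 for Acaca, -0.25 for Acly and -1.65 for Elovl6, that in TRα1+m mice -1.11 for Scd1 and -0.26 for Elovl6, the genotype difference of Scd1 after maternal T3 -0.46, and the interaction 0.53 for Scd1 and 0.82 for Fasn. The genotype difference without maternal T3 turned with this covariate for the same 5 genes and, to 0.0059, for Acacb. The cause was not tested.

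With 1 mouse left out, values of either sign were found for the genotype difference without maternal T3 of Acaca (-0.068 to 0.70) and Acacb (-0.17 to 0.0053), for that after maternal T3 of Scd1 (-0.37 to 1.39), for maternal T3 in wild-type mice of Acaca (-0.12 to 0.50) and Elovl6 (-0.39 to 0.52), for maternal T3 in TRα1+m mice of Scd1 (-0.78 to 0.98), Elovl6 (-0.37 to 1.50) and Me1 (-0.22 to 0.0064), and for the interaction of Scd1 (-1.53 to 0.23), Fasn (-0.86 to 0.59), Acaca (-0.16 to 0.94), Acly (-0.18 to 0.64) and Elovl6 (-0.46 to 1.42). The other settings were no filter, and arrays centred on their medians. A second probe set could not be tried, since each of the 8 genes has 1. No paired analysis was possible because the labels do not say which mice shared a dam or a litter. Fits of the compared groups alone gave no interaction.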
